A study of Homo sapiens with 6 samples.

Results

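RNF and TRIM transcripts were followed in immunoprecipitates (IPs) of the double-stranded RNA-binding protein Staufen1 (Stau1). The members were all targets of the array table whose gene symbol was RNF or TRIM followed by a digit, which gave 149 of 37879 targets, 82 RNF and 67 TRIM. HEK293T cells, a human embryonic kidney line that carries the SV40 large T antigen, were transfected with a plasmid for Stau155-FLAG, a FLAG-tagged Stau1 isoform, or with the empty vector, and every culture was held in prometaphase with nocodazole at 50 ng/ml for 15 h by the labels, where the methods give another duration. RNA that came down with an anti-FLAG antibody was hybridized to Illumina human expression BeadChips, 3 arrays per group, and the empty-vector precipitates are the control IPs. Stau1 was thus supplied by transient transfection over the cells' own Stau1, which carries no tag, and the labels give a replicate number but not whether the replicates were separate cultures, so that p-values measure the spread between these arrays only.

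RING domains are zinc-binding folds that hold an E2 enzyme charged with ubiquitin next to a substrate, and most proteins that carry one act as ubiquitin ligases. RNF (ring finger) genes are named for the domain alone and encode proteins as different as transmembrane ligases of the endoplasmic reticulum and nuclear ligases at DNA breaks. TRIM (tripartite motif) proteins join a RING to B-box zinc fingers and a coiled coil, and many act in antiviral defence or in transcription. The anaphase-promoting complex, which orders the exit from mitosis, is a RING-type ligase too, but its subunits carry other names and are not among the members.

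The label holds for most members and not for all of them. TRIM14, TRIM16, TRIM16L, TRIM29 and TRIM44 are members by their symbol although their proteins are known to lack a RING, and 4 members are listed as pseudogenes by RefSeq. Of the 149 members, 142 bear the same symbol in RefSeq (GRCh38.p14), 6 have since been renamed (among them RNF12, now RLIM, RNF144, now RNF144A, RNF160, now LTN1, RNF190, now MARCHF10, and RNF219, now OBI1) and TRIM78P was not matched. The arrays measure transcripts, and no ubiquitin ligase activity was measured.

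A target counted as detected on an array when the detection p-value, which ranks its signal among the negative controls of that array, was under 0.05. By this measure 75 members were detected on all 6 arrays and 42 on none. The RNF targets were detected more widely than the TRIM targets. Of the 82 RNF targets 50 were detected on all 6 arrays and 14 on none, whereas of the 67 TRIM targets 25 were detected on all 6 and 28 on none. On at least 3 arrays 88 members were detected, 55 RNF and 33 TRIM, against 12774 of all targets.

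**Figure D1:**
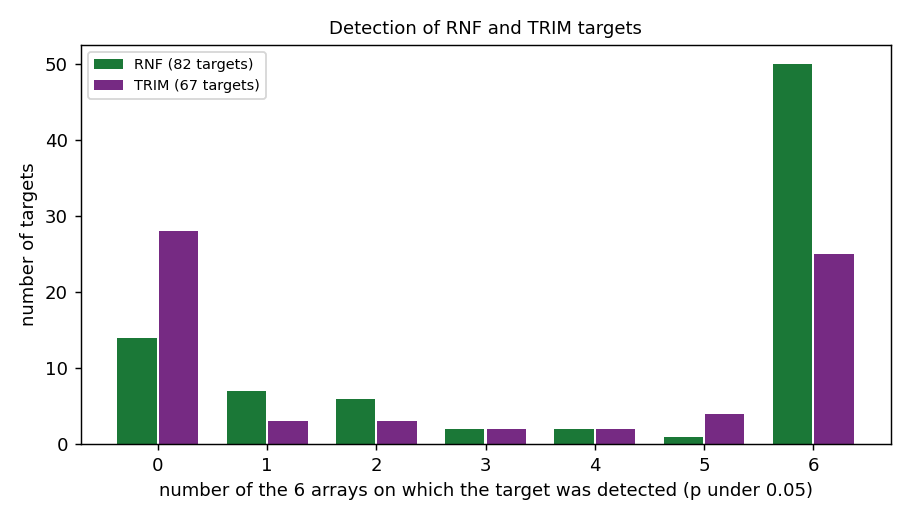
Number of RNF targets (green bars) and TRIM targets (purple bars) on the vertical axis by the number of the 6 arrays on which the target was detected at a p under 0.05 on the horizontal axis. Most targets lie at the ends, with 50 RNF and 25 TRIM targets detected on all 6 arrays and 14 RNF and 28 TRIM targets on none.

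The 4 arrays numbered 1 and 3 fell apart by group, and the arrays numbered 2 resembled the other group at least as closely as their own. Over 9809 targets outside the RNF and TRIM families that were detected on every array, Pearson's r of the normalized values was 0.996 between Stau1 IPs 1 and 3. The array labelled Stau1 IP 2 reached only 0.941 and 0.943 with them and 0.977 with control IP 3, while the array labelled control IP 2 reached 0.983 and 0.984 with Stau1 IPs 1 and 3 and 0.977 and 0.982 with control IPs 1 and 3. Whether these arrays had been exchanged was not tested, so both are shown singly, under their labels. Each comparison is given over the 6 arrays and over the 4 arrays numbered 1 and 3. The arrays numbered 2 were left out of the latter because of their profiles, which narrows the spread within the groups. The p-values and counts over 4 arrays do not account for this choice, and the p-values can be too small. All 6 HEK293T markers chosen (VIM, KRT8, KRT18, NEFL, NEFM and INA) were detected on every array, with a summed signal of 12446 to 15845 in control IPs and 12085 to 13871 in Stau1 IPs. VIM alone made up most of this sum, with 8022.5 to 11411 per array. PTPRC, ALB, COL1A2 and CDH5 were detected on none and COL1A1, the last of 5 markers of other cell types, on 5. The STAU1 transcript itself had signals of 2499, 3246 and 2758 in control IPs 1, 2 and 3 and of 2845, 1857 and 3130.1 in Stau1 IPs 1, 2 and 3, which overlap.

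By the labels of all 6 arrays, no RNF or TRIM transcript passed here as enriched or depleted in Stau1 IPs. The study, by contrast, lists TRIM65, RNF24 and RNF215 from these same arrays. Why these members did not pass here over 6 arrays was not tested. The threshold of the study's methods, a fold above 2.5 with an unadjusted p under 0.05, was passed by 0 members in either direction, beside a background of 0.00264% of all targets enriched and 0% depleted, and 0 members passed limma's test at a Benjamini-Hochberg adjusted p of 0.05 over all 37879 targets. At an unadjusted p under 0.05, 15 members (10.1%) were higher and 12 (8.05%) were lower, beside 3.92% and 5.01% of all targets. Among targets detected on at least 3 arrays these were 14 members (15.9%) beside 8.81% and 8 members (9.09%) beside 11.4%. The 6 arrays separated by group, every Stau1 IP above every control IP, for 19 members, which is 12.8% of them beside 6.77% of all targets, and the reverse held for 15 members, 10.1% beside 7.7%. Among the targets detected on at least 3 arrays the shares were 15 of 88 members higher, 17%, beside 9%, and 9 members lower, 10.2%, beside 12.7%.

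Over the 4 arrays numbered 1 and 3, TRIM65 and RNF215 passed the fold and p threshold by limma's p as enriched, and no member passed it as depleted. TRIM65 and RNF215 are 1.34% of the members beside 0.623% of all targets enriched, and 0 beside 0.0528% depleted. By the methods' t-test RNF215 alone passed. At an adjusted p of 0.05 that test was passed by 0 members and by 0 of all targets, so its 0 is not particular to the members. At an adjusted p of 0.05 and any fold, 15 members were higher (among them TRIM65, RNF215, RNF24, RNF187, RNF103, RNF166, RNF31, TRIM28, RNF4, RNF5P1, TRIM46, RNF11, RNF5 and TRIM56) and 3 were lower (RNF181, RNF113A and RNF34), beside 3.61% and 2.77% of all targets. Together they are 12.1% of the members beside 6.38% of all targets, but few undetected targets passed, and among targets detected on at least 3 arrays the share was 18.2% of the members beside 17.9%. Of these 88 members, 14 (15.9%) were higher beside 10.1% of such targets and 2 (2.27%) were lower beside 7.84%, and the 2 at the fold threshold are 2.27% beside 1.8%. The share of RNF and TRIM transcripts that passed the adjusted threshold was thus near that of all detected targets. At an unadjusted p under 0.05, 34 members (22.8%) were higher and 16 (10.7%) lower, beside 8.65% and 8.8% of all targets, and among detected targets 31 members (35.2%) beside 22.2% and 15 members (17%) beside 23%. Both Stau1 IPs stood above both control IPs for 53 members, 35.6% beside 22.8%, and below them for 36, 24.2% beside 23.4%, and among detected targets for 37 members (42%, beside 31%) and 25 members (28.4%, beside 35.3%). The median difference of the 88 detected members was 0.026 on the log2 scale, beside -0.021 over all detected targets. In an IP of a whole culture, more of a transcript bound in each cell and more of it recovered in total cannot be told apart, and input RNA was not analysed here. The adjusted counts fell to 1 higher (RNF103) and 0 lower with limma's neqc normalization, to 2 higher (RNF103 and RNF187) and 0 lower with another constant term of the transformation, and to 0 in both directions without Stau1 IP 1 or Stau1 IP 3.

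The greatest differences over 4 arrays were those of the antiviral ligase TRIM65 and of the membrane-anchored RNF215 and RNF24, followed by RNF187 and RNF103. TRIM65, which ubiquitinates the cytoplasmic double-stranded RNA sensor MDA5, had signals of 171, 1012 and 429 in control IPs 1, 2 and 3 and of 1482, 323 and 1909 in Stau1 IPs 1, 2 and 3. Stau1 IPs 1 and 3 were the highest of the 6 arrays, the array labelled control IP 2 came next, and the array labelled Stau1 IP 2 lay between control IPs 1 and 3, so the groups overlapped by their labels. The 4-array difference, Stau1 IPs minus control IPs on the normalized log2 scale, was 2.29 ± 0.39 (SE, n = 2 per group), a 4.89-fold enrichment with an adjusted p of 0.049. Over 6 arrays it was 1.15 ± 0.74 (n = 3 per group, adjusted p = 0.765), and between the arrays numbered 2 alone it was -1.12.

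RNF215, a predicted transmembrane RING protein, followed the same order. Its signals were 321, 1059 and 465 in control IPs 1, 2 and 3 and 1359, 492 and 1389.9 in Stau1 IPs 1, 2 and 3. Stau1 IPs 1 and 3 were again the highest, the array labelled control IP 2 stood nearer to them than to the other control IPs, and the array labelled Stau1 IP 2 stood beside control IP 3. RNF215 was 2.89-fold enriched over 4 arrays (log2 difference 1.53 ± 0.15, SE, adjusted p = 0.015) and differed by 0.80 ± 0.45 over 6 arrays (adjusted p = 0.723). It missed the fold threshold with neqc (log2 difference 1.07) and with the other constant term (1.32), and TRIM65 missed the p threshold with the methods' t-test.

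RNF24, a membrane protein that binds TRPC channels, gave signals of 159.7, 489 and 239 in control IPs 1, 2 and 3 and of 632, 192 and 653 in Stau1 IPs 1, 2 and 3. Here too each array numbered 2 lay nearer to the opposite group. Its 4-array difference of 1.32 ± 0.16 (SE, adjusted p = 0.023) lay just under the fold threshold, which it passed with median centring of the arrays, with log2 of shifted signals and without control IP 3 or Stau1 IP 3. It was 0.39 with neqc (adjusted p = 0.088) and 0.79 with the other constant term (adjusted p = 0.069). RNF103, a ligase of the endoplasmic reticulum, had signals of 848, 1484 and 867 in control IPs and 1884, 480.0 and 2000.3 in Stau1 IPs, in the order 1, 2 and 3. Its Stau1 IP 2 signal was the lowest of all 6. The difference was 0.96 ± 0.05 over 4 arrays (SE, adjusted p = 0.007) and 0.25 ± 0.48 over 6 arrays (adjusted p = 0.945).

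Another set of members with a raised signal kept the order of the labels on every array. RNF166, a ligase linked to the autophagy of bacteria, had signals of 178, 286 and 202 in control IPs 1, 2 and 3 and of 445, 295 and 439 in Stau1 IPs 1, 2 and 3. After normalization all 3 Stau1 IPs lay above all 3 control IPs, and the difference was 0.73 ± 0.09 over 6 arrays (SE, adjusted p = 0.159) and 0.85 ± 0.07 over 4 (adjusted p = 0.013). The 4-array value was 0.197 with neqc (adjusted p = 0.102) and 0.435 with the other constant term (adjusted p = 0.061). TRIM28, the KAP1 corepressor that KRAB zinc finger proteins recruit to chromatin, gave signals of 2187, 2786 and 2119 in control IPs and 3442, 3919 and 4602 in Stau1 IPs, in the same order. Every Stau1 IP was above every control IP before normalization as well, and the array labelled Stau1 IP 2 exceeded the array labelled control IP 2 by 0.62 on the log2 scale. The TRIM28 difference was 0.72 ± 0.09 over 6 arrays (adjusted p = 0.163) and 0.76 ± 0.12 over 4 arrays (adjusted p = 0.037).

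RNF187, a coactivator of the AP-1 factor c-Jun, and RNF31, the catalytic subunit of the linear ubiquitin chain assembly complex, belonged to this set. RNF187 signals were 809.9, 1412 and 968 in control IPs and 1988, 1391 and 2299.9 in Stau1 IPs, and the raw values of the arrays numbered 2 were nearly equal. After normalization the Stau1 IPs of RNF187 stood above the control IPs, with differences of 0.78 ± 0.17 over 6 arrays (adjusted p = 0.283) and 1.06 ± 0.07 over 4 (adjusted p = 0.0092), which is 2.09-fold. RNF31 signals were 317, 592 and 405 in control IPs and 719, 554 and 816 in Stau1 IPs, with a difference of 0.63 ± 0.13 over 6 arrays (adjusted p = 0.255) and 0.79 ± 0.09 over 4 (adjusted p = 0.021). With neqc the RNF31 value over 4 arrays was 0.341 (adjusted p = 0.104). The raw RNF31 signal was lower on Stau1 IP 2 than on control IP 2, so that its separation rests on the normalization.

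Of the other members higher on all 3 Stau1 IPs by the normalized values, RNF123, RNF126, RNF130, RNF185, RNF208, RNF220, RNF26, TRIM11 and TRIM46 were detected on all 6 arrays. TRIM11 differed by 0.53 ± 0.15 over 6 arrays, with an adjusted p of 0.393. TRIM46, which bundles microtubules in the axon initial segment, differed by 0.41 over 6 arrays and by 0.55 ± 0.07 over 4 (adjusted p = 0.028). RNF26, a ligase of the endoplasmic reticulum that positions endosomes, had raw signals of 2051, 2568 and 2139 in control IPs and 2596, 3052 and 3435 in Stau1 IPs, also without overlap, and a difference of 0.38 ± 0.08 over 6 arrays (adjusted p = 0.275). None of these members passed the adjusted threshold over 6 arrays, and of them TRIM46 alone passed it over 4.

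**Figure D2:**
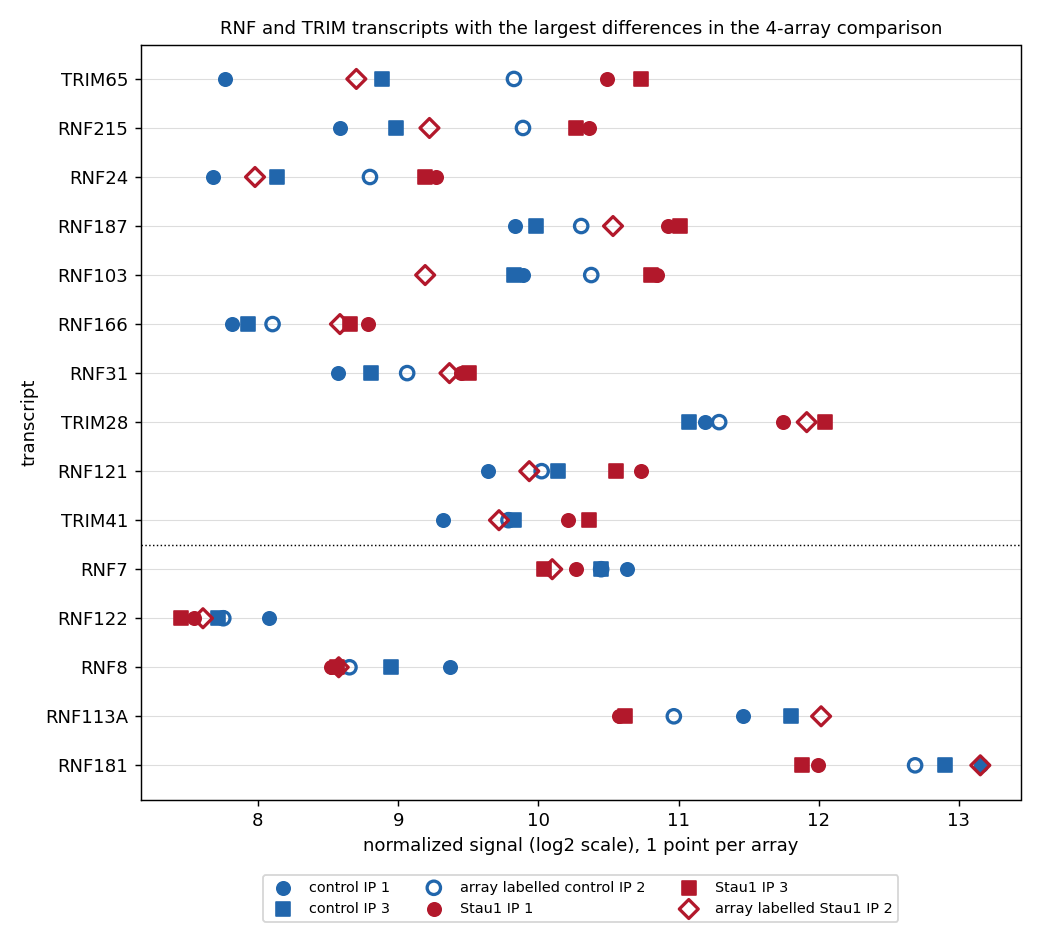
Normalized signal on the log2 scale (horizontal axis) of the 10 detected RNF and TRIM transcripts with the greatest positive and, below the dotted line, the 5 with the greatest negative 4-array differences, 1 point per array. Blue marks control IPs and red Stau1 IPs, and open symbols mark the arrays numbered 2. Of these, Stau1 IP 2 (diamonds) sits near the control IPs for TRIM65, RNF215, RNF24, RNF113A and RNF181. It sits with the other Stau1 IPs for RNF166 and TRIM28 and below all other arrays for RNF103.

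The remaining members that passed the adjusted threshold as higher over 4 arrays had differences of up to 0.70. RNF4, which ubiquitinates proteins that carry SUMO chains, differed by 0.70 ± 0.07 (SE, adjusted p = 0.016), with signals of 666, 867 and 634 in control IPs and 1199, 568 and 1317 in Stau1 IPs. Stau1 IP 2 was the lowest RNF4 array. RNF5, a ligase anchored in the endoplasmic reticulum, differed by 0.40 ± 0.07 (adjusted p = 0.046), and the target for its processed pseudogene RNF5P1 by 0.64 ± 0.06 (adjusted p = 0.015). The sequences of these 2 genes are nearly identical and the probes were not compared here, so which of them was measured is uncertain.

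TRIM56, a ligase of innate immune signalling, was not detected on control IPs 1 and 3. Its measured values were 1.286-fold higher on Stau1 IPs 1 and 3 (adjusted p = 0.032). This fold is uncertain because the control signals were not above background. RNF11, a partner of the A20 ubiquitin-editing enzyme, passed with an adjusted p of 0.049 but was not detected on any of these 4 arrays, and no fold is given. Detected members that missed the adjusted threshold reached up to 0.75 for RNF121 (adjusted p = 0.114) and 0.71 for TRIM41, a ligase for protein kinase C (adjusted p = 0.129).

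RNF181 and RNF113A were the detected members that passed as lower. RNF181, a ligase that binds the platelet integrin alpha IIb, had signals of 9284, 7331 and 7588 in control IPs 1, 2 and 3 and of 4059.5, 9719 and 4129.8 in Stau1 IPs 1, 2 and 3. Stau1 IPs 1 and 3 were the lowest arrays, and the array labelled Stau1 IP 2 had the highest raw signal of all 6. RNF181 differed by -1.09 ± 0.10 over 4 arrays (SE, adjusted p = 0.015), which is 2.12-fold lower, and by -0.57 ± 0.36 over 6 (adjusted p = 0.761). RNF113A, a spliceosome protein that also serves in the repair of alkylated DNA, gave 2658, 2229 and 3538 in control IPs and 1572, 4227 and 1764 in Stau1 IPs. Its highest raw signal again came from Stau1 IP 2, and the 4-array difference was -1.03 ± 0.13 (adjusted p = 0.023; -1.54 and 0.123 with neqc), 2.05-fold lower, beside -0.34 ± 0.45 over 6 arrays (adjusted p = 0.909).

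RNF34, a ligase of caspases 8 and 10, passed the adjusted threshold over 4 arrays (adjusted p = 0.014) with signals of 3883, 3298 and 3523 in control IPs and 2117, 3129 and 2400.5 in Stau1 IPs. The raw values do not overlap between the groups and the normalized ones do, and its detection p-value was under 0.05 on 1 array only, so no fold is given. RNF216 was likewise detected on 1 array in spite of a mean signal of 335, and the reason is not in the table.

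A few members were lower on all 3 Stau1 IPs by the normalized values without passing any adjusted threshold. RNF7, the RING subunit of cullin 5 ligases, had signals of 1456, 1558 and 1353 in control IPs and 1272, 996 and 1189 in Stau1 IPs, which do not overlap, and differed by -0.37 ± 0.08 over 6 arrays (SE, adjusted p = 0.276). RNF8, which marks DNA breaks with ubiquitin, gave 575, 439 and 452 in control IPs and 363, 293 and 408 in Stau1 IPs. The RNF8 difference was -0.44 ± 0.18 over 6 arrays (adjusted p = 0.571) and -0.62 ± 0.15 over 4 (adjusted p = 0.113), and -0.247 over 6 arrays without control IP 1. RNF122 differed by -0.31 ± 0.11, RNF138, a ligase of DNA end resection, by -0.39 ± 0.14 and RNF145, which acts on the sterol-synthesis enzyme HMG-CoA reductase, by -0.44 ± 0.18 over 6 arrays. For RNF138 and RNF145 the Stau1 IP 2 signal, at 138 and 249, was far below the other 5 arrays. Their 4-array differences were -0.25 and -0.19, and without Stau1 IP 2 alone -0.232 and -0.243.

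RNF114, a cytoplasmic RING ligase, had signals of 2093, 2966 and 3311 in control IPs and 3611, 2027 and 3646 in Stau1 IPs. The groups overlapped, and its difference of 0.11 ± 0.25 over 6 arrays (adjusted p = 0.956) turned to -0.03 without control IP 1 and to -0.045 without Stau1 IP 1.

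The arrays numbered 2, which were left out of the 4-array comparison because their profiles were in doubt, were set against it member by member. Opposite signs thus restate in part why they were left out, and these arrays did enter the normalization and the detection filter. Of the 15 members that were higher at the adjusted threshold over 4 arrays, 10 (66.7%) were lower on the array labelled Stau1 IP 2 than on the array labelled control IP 2, and all 3 that were lower over 4 arrays were higher there. Over all targets the shares were 1085 of 1369 (79.3%) and 703 of 1048 (67.1%). The members at the fold and p threshold, TRIM65 and RNF215, were opposite like 226 of 236 such targets (95.8%). Among the 88 detected members 55 (62.5%) had opposite signs, beside 57.8% of all 12774 detected targets. The other 5 of the 15 higher members, with the same sign on both sets of arrays, were RNF166, TRIM28, RNF187, RNF31 and TRIM46.

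Some members differed mainly between the arrays numbered 2. RNF25, which acts at stalled ribosomes, was 1.38 higher on the array labelled Stau1 IP 2 than on the array labelled control IP 2 and differed by -0.37 over 4 arrays. RNF170, which promotes the degradation of IP3 receptors, was at -1.13 between the arrays numbered 2 and at 0.54 ± 0.11 over 4 arrays (SE, adjusted p = 0.077). TRIM27 stood at 1.20 and -0.15, and TRIM44, one of the TRIM proteins without a RING, at -0.95 and 0.63 ± 0.43 (adjusted p = 0.617).

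**Figure D3:**
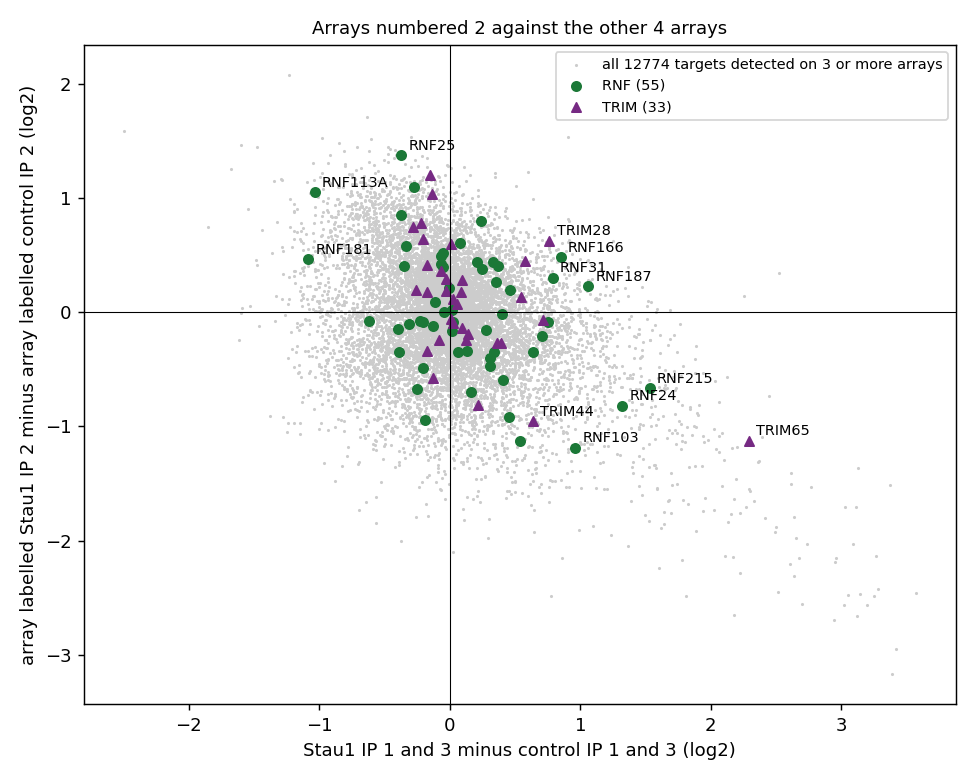
Log2 difference of the Stau1 IP from the control IP of the pair numbered 2 (vertical axis) against the difference of Stau1 IPs 1 and 3 from control IPs 1 and 3 (horizontal axis), for the 55 RNF (green circles) and 33 TRIM (purple triangles) targets detected on at least 3 arrays over all 12774 such targets (grey). TRIM65, RNF215, RNF24 and RNF103 lie at the lower right, where the sign turns between the axes, and TRIM28, RNF166, RNF31 and RNF187 at the upper right, where it is kept.

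Grouped by role, the members that passed the adjusted threshold were few in each group. Over 4 arrays 10.1% of all detected targets passed it as higher and 7.84% as lower. Of 27 membrane-anchored RNF ligases 18 were detected on at least 3 arrays, 4 passed the adjusted threshold over 4 arrays as higher (RNF215, RNF24, RNF103 and RNF5) and 0 as lower, so that 22.2% of the detected ones passed beside 17.9% of all detected targets, and their median difference was 0.28, beside -0.021 over all detected targets. Others of this group stood on the other side of 0, such as RNF122 at -0.39 and RNF149 at -0.21. Of 8 RING-between-RING ligases, which pass ubiquitin through a cysteine of their own, 6 were detected and RNF31 passed as higher (16.7%), with a median of 0.23. The nuclear ligases of chromatin and DNA damage had a median of -0.26 over 6 detected members of 9, of which RNF4 passed as higher (16.7%) and 0 as lower, RNF8 and RNF20 standing at -0.62 and -0.31.

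Among the TRIM proteins the counts were small. Of 11 innate immune RNF and TRIM proteins 7 were detected, TRIM65 and TRIM56 passed as higher (28.6%) and 0 passed as lower, and the median was 0.097, with TRIM25, a ligase of RIG-I signalling, at 0.39 (adjusted p = 0.139) and TRIM21, the cytosolic antibody receptor, at -0.22. Of 3 TIF1 cofactors TRIM28 was the detected one. Of 4 NHL-repeat proteins 3 were detected and 0 passed in either direction, with a median of -0.029. Of 9 COS-box proteins, which bind microtubules and include the non-members MID1 and MID2, 5 were detected. TRIM46 passed as higher (20%, beside 10.1% of all detected targets), 0 passed as lower, and the median was -0.079. MID2, counted in this median, stood at -0.24, and TRIM9, TRIM36 and TRIM67 at -0.08, -0.18 and 0.09. MID1 was detected on no array in spite of signals of 743 to 988.

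**Figure D4:**
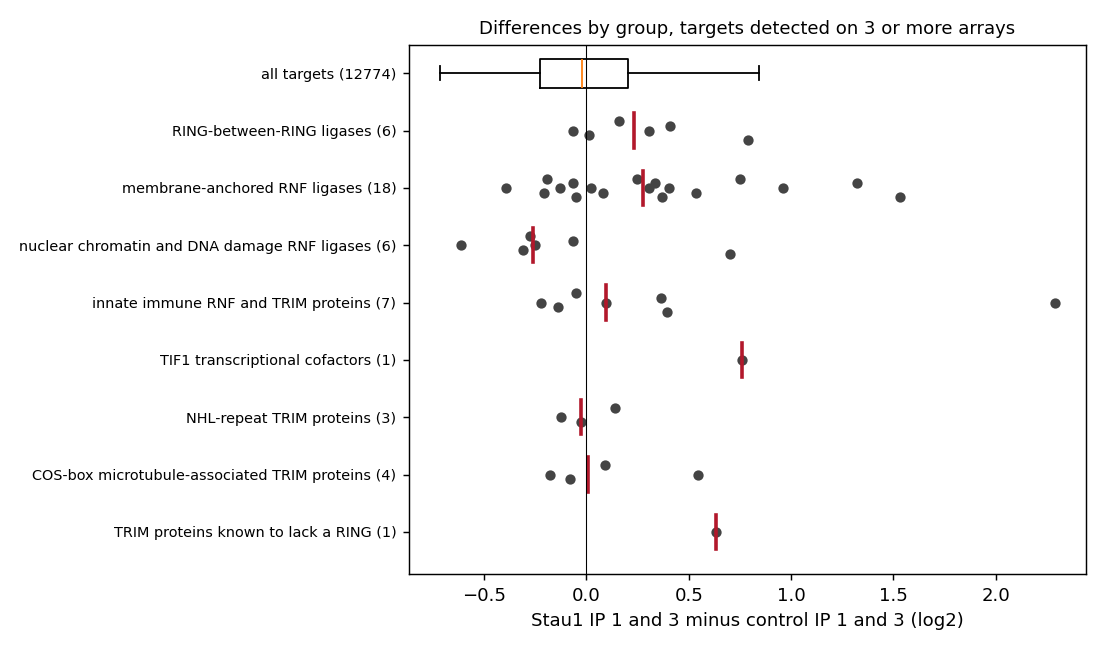
Log2 difference of Stau1 IPs 1 and 3 from control IPs 1 and 3 (horizontal axis) for the members of 8 role groups detected on at least 3 arrays, 1 point per transcript spread vertically for legibility, with the group median in red. MID2 is not a member and is not drawn, so the red COS-box median is that of the TRIM members alone. The box at the top spans the quartiles of all 12774 detected targets, with its median in orange and whiskers at percentiles 5 and 95, and the points of most groups lie on both sides of 0.

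The ligases with a RING but another name and the upstream enzymes of the pathway gave a setting for these counts. Of 65 other RING ligases on the array 53 were detected on at least 3 arrays, and 6 were higher and 6 lower at the adjusted threshold over 4 arrays, 22.6% of the detected ones beside 17.9% of all detected targets. CHFR, the ligase of the prophase checkpoint that acts when microtubules are disrupted, had signals of 823, 4100.1 and 1183 in control IPs and 6646, 964 and 6811 in Stau1 IPs and a 4-array difference of 2.64 ± 0.15 (SE, adjusted p = 0.0075), and MEX3D, an RNA-binding RING protein, of 1.75 ± 0.13 (adjusted p = 0.011). Both passed the fold threshold, and both were lower on Stau1 IP 2 than on control IP 2. TTC3, a ligase of AKT, was the only target of the table that passed the adjusted threshold by the labels of all 6 arrays, with a difference of -0.73 ± 0.03 (adjusted p = 0.018). That count of 1 was 0 with median centring, shifted log2 values, the detection filter, an intensity trend, the replicate block or any single array left out. Of 31 ubiquitin, E1 and E2 genes 25 were detected. UBE2N, the E2 of lysine-63-linked chains, alone passed as higher over 4 arrays (4%, beside 10.1% of all detected targets), and 0 passed as lower. UBE2N differed by 1.10 ± 0.09 over 4 arrays (adjusted p = 0.012) and by -1.87 between the arrays numbered 2.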

How the data were processed

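RNA from 3 control IPs and 3 Stau1 IPs was measured on Illumina HumanWG-6 version 3 BeadChips. The authors deposited signal intensities without background subtraction or normalization, with the probes of a target combined, the bead standard error, also an intensity, the number of beads per target as another column (median 41 on every array) and a detection p-value. The genome build is not given in the sources used here. A FlexArray chain named in the methods was rebuilt in R 4.3.3, with the packages limma 3.58.1 and, for the spline, mgcv 1.9.3. The negative-control level of each array, 77.6 to 89.6, was estimated from 200 targets whose detection p lay closest to 0.5, by their median, and was then subtracted. A variance stabilizing transformation was fitted to the bead SD over 500 bins without the lowest 33.3% of signals, and in effect added 115 to 160.0 to each signal before the log2, which understates differences of dim targets. Robust spline normalization with 10 knots used control IP 3 as reference. Between 11635 and 13054 targets, 85 to 91 of them members, were detected per array, and the number of arrays limits the precision.

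All 37879 targets were fitted with lmFit and eBayes, Stau1 IP minus control IP, over 6 arrays and over the 4 numbered 1 and 3. On simulated intensities with 200 of 37879 targets changed 4-fold, 83% (6 arrays) and 81% (4 arrays) were called, with 0 in the wrong direction. Among unchanged targets, 6 (6 arrays) and 3 (4 arrays) passed the adjusted p. Only targets detected on all 6 arrays with a mean signal more than 200 above background were changed. The simulated spread was that between Stau1 IPs 1 and 3, and no simulated array resembled the other group. In the real data control IPs 1 and 3 were less alike (r = 0.983) than Stau1 IPs 1 and 3 (r = 0.996). These shares and counts therefore cannot be carried over to the real comparison over 6 arrays or to that over 4. Members, lists and the 4-array comparison were chosen with earlier results of these data known. Named members were TRIM65, RNF24 and RNF215, which the study lists from these arrays and which are no independent choice, those past the fold threshold, the 10 greatest positive and 5 greatest negative differences of each comparison among members detected on at least 3 arrays, and the 5 with the highest mean signal. Examples from the lists, the other transcripts past the adjusted threshold and those on the arrays numbered 2 were added after their values were seen. Most members are given by counts only, and 1 of the 15 higher ones is not reported by name here. Alternatives were limma's neqc with an offset of 16, quantile normalization, median centring, shifted log2 values, another constant term of the transformation, a detection filter, the methods' t-test, an intensity trend, a 2-fold threshold, a replicate block and leaving out arrays. Plots were drawn with Python 3.11.15 and matplotlib 3.10.9.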

Additional observations from a re-analysis of the deposited data

How the results depend on the processing

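Over 6 arrays the counts of enriched, depleted and adjusted calls among the members stayed at 0 under each alternative to the processing and the test. Leaving out single arrays gave 0 to 1 enriched members, the 1 being TRIM65 without Stau1 IP 2, and without both arrays numbered 2 there were 2 enriched members and 15 higher and 3 lower at the adjusted p. Of 305 values of 18 named members over 6 arrays, 2 turned direction, both for RNF114, whose values without single arrays ran from -0.0452 to 0.35. Over 4 arrays TRIM65 and RNF215 were the 2 members enriched with quantile normalization, an intensity trend and the detection filter as well, TRIM65 and RNF187 the 2 with neqc, and RNF24 was added with median centring and with shifted log2 values. RNF113A was depleted as 1 member with neqc, which left 1 higher and 0 lower members at the adjusted p. The other constant term of the transformation left 1 enriched member, TRIM65, with 2 higher and 0 lower at the adjusted p, and the methods' t-test left 1, RNF215, with 0 and 0 after Benjamini-Hochberg adjustment. A 2-fold threshold gave 4 enriched and 2 depleted members, beside 460 and 160 of all targets. Without single arrays the adjusted counts over 4 arrays ran from 0 to 30 higher and from 0 to 13 lower: 24 and 13 without control IP 1 (4625 of all targets), 30 and 8 without control IP 3 (6081), and 0 and 0 without Stau1 IP 1 or Stau1 IP 3, where the lone array of a group is assumed to vary like the other group. Of 237 values of 17 named members, 53 lost and 11 gained the adjusted threshold and 0 turned direction. Over all targets 2417 passed the adjusted threshold over 4 arrays, beside 249 with neqc, 638 with the other constant term and 0 with the methods' t-test, and the count of enriched targets was 236, beside 126 over the 5 arrays without Stau1 IP 2. The cause of these shifts was not tested.

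With the replicate number as a block the members enriched over 4 arrays were 2, TRIM65 and RNF215, with 10 higher and 3 lower at the adjusted p, TRIM28 no longer among them (adjusted p = 0.077), and 1652 of all targets passing it, and over 6 arrays 0. Deviations from the group means correlated at -0.45, -0.78 and -0.39 between arrays of the same number. By these deviations no array correlated best with its own number. Such deviations add up to 0 within a group, and each best match involved an array numbered 2. Whether the numbers pair the arrays therefore cannot be told from these values. Where a target was not above background on a group, its level there has only a bound, and its fold is uncertain.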
